A study of Prunus persica with 16 samples.

Results

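The 8 libraries described here compare buds of hydrogen cyanamide (HC) treated peach trees with buds of untreated trees 7 days after the spray. They are 8 of the 16 mRNA sequencing libraries of the series, chosen by treatment and day as labelled. HC-treated trees received 1% (v/v) HC with 0.15% (v/v) non-ionic surfactant, while control trees were left without HC and no surfactant spray is mentioned for them, so HC and surfactant cannot be told apart. All trees were 5-year-old 'TropicBeauty', a low-chill cultivar, on 'Floridaguard' rootstock, and had met 11 of the 150 chilling hours they need at the time of the spray. Each group held 4 libraries from 4 trees, and HC and control libraries of 3 days, 4 of each, were used for the spread of each gene and for the test of late effects. Genes entered the comparison when they had an FPKM (a level scaled by transcript length and library size) of 1 or more in at least 4 of the 8 libraries, which kept 14664 of 26873 gene identifiers (54.6%). A further 4811 genes were above 0 in at least 1 of the 8 libraries without meeting that filter, and 7398 were listed at 0 in all 8.

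Buds of peach and other temperate fruit trees pass winter in dormancy, and a long enough period of chilling releases them so that they can open in spring. HC is a growth regulator sprayed on dormant trees where winters are too mild for this. It is known to inhibit catalase and to disturb respiration and the balance of reactive oxygen in bud tissue before growth resumes. The comparison at 7 days asks which transcripts differ in the buds at the later of the sampled days. The files give gene identifiers without names, and 0 of the 26873 identifiers matched the reference table, so no gene below can be given a function and no pathway or cell type list could be scored. The labelled tissue could for the same reason not be checked against marker genes. A bud holds several tissues, and in such bulk RNA fewer cells of a type and less RNA per cell cannot be told apart.

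At 7 days 88 genes were called different, 67 higher and 21 lower in HC than in control buds (limma on log2(FPKM + 1), Benjamini-Hochberg adjusted p under 0.05). That was 0.6% of the tested genes, with 0.457% higher and 0.143% lower. In all 88 the 4 HC libraries lay apart from the 4 control libraries. Such separation was itself more common than a call: all 4 HC libraries lay above all 4 control libraries in 5.31% of tested genes and below them in 1.63%. The 67 higher genes had log2 fold changes of 0.76 to 6.51 with a median of 2.85. The 21 lower genes lay between -3.13 and -0.62 with a median of -1.74. Over all tested genes the median was 0.26. With median-of-ratios scaling that median was 0.16, and 57 genes were called higher and 25 lower in HC. The count of 88 rested on single libraries. It was 42, 24 and 21 without HC replicate 1, 3 or 4, and 27, 175, 53 and 56 without control replicate 1, 2, 3 or 4. Fitting only the 8 libraries of 7 days called 13 genes, all among the 88. This estimates the spread from fewer libraries and without those of 3 days, and which of these lowered the count was not tested. In that limma fit the 88 had a median adjusted p of 0.11, and 37 of them were under 0.1. Their unadjusted p was 0.0072 or less, but the same 8 libraries had helped to choose them, so this lends no further weight.

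Higher and lower genes came from different parts of the abundance range. The 67 higher genes had a median mean level of 14.6 FPKM over the 8 libraries, close to the 13.2 FPKM of all tested genes, while the 21 lower genes had a median of 356 FPKM. Among the 3313 genes with a mean of up to 5 FPKM, 15 were higher and 1 was lower in HC. Among the 179 genes above 1000 FPKM, 2 were higher and 8 were lower. The share of genes called was 0.483% in the lowest class and 5.59% in the highest. The median log2 fold change fell along the same classes, with 0.39 up to 5 FPKM, 0.37 from 5 to 20 FPKM, 0.19 from 20 to 100 FPKM, 0.06 from 100 to 1000 FPKM and -0.09 above 1000 FPKM. With median-of-ratios scaling these medians were 0.33, 0.27, 0.07, -0.06 and -0.21, so the sign of the class from 100 to 1000 FPKM depended on the scaling. Without control replicate 1 the lowest classes moved to 0.22 and 0.20, and the highest stayed at -0.10.

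**Figure D1:**
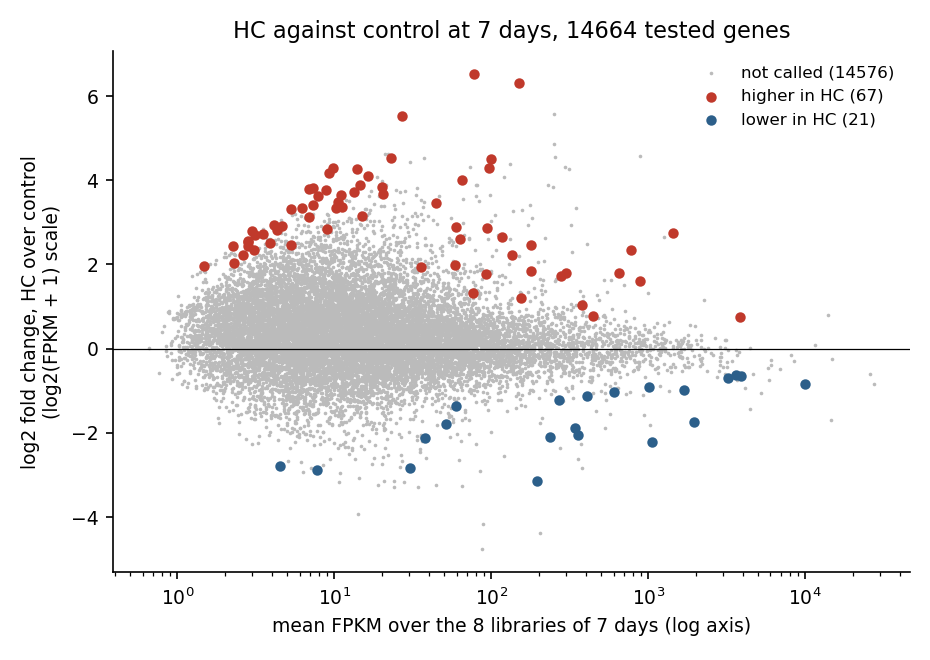
Log2 fold change of HC over control at 7 days (vertical axis, log2(FPKM + 1) scale) against the mean FPKM over the 8 libraries (horizontal log axis), 1 point per tested gene. The 67 genes higher in HC (red) spread over the low and middle range with a median of 14.6 FPKM, and the 21 lower genes (blue) sit further right with a median of 356 FPKM.

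The largest increase by the naming rule was that of Prupe.2G242800. Its FPKM was 51.7, 94.95, 374 and 93.3 in HC libraries 1 to 4, and control libraries were listed at 0 except control replicate 4 at 1.57 FPKM. HC replicate 3 was the highest by a wide margin, and no control library came near the HC values. The log2 fold change was 6.51 ± 1.31 (SE, limma adjusted p = 0.027). This transcript rested on few reads for its FPKM: an estimated 170 reads in the 4 HC libraries together and 1 read in control. In control replicate 1, which was shallow, 1 read of this gene would have stood for 26.6 FPKM, so its 0 there says little. The call was lost in 8 of 18 alternatives (adjusted p from 0.0043 to 0.12). It was lost without HC replicate 1, 3 or 4 (0.051, 0.095 and 0.078) and without control replicate 1, 3 or 4 (0.087, 0.072 and 0.051). The authors' deposited table for 7 days gives this gene a smaller log2 fold change, 3.68 with an adjusted p-value of 0.0027. At 3 days the gene was present in control libraries 1 to 4 at 96.85, 0, 44.81 and 62.45 FPKM, against 56.28, 4.43, 31.24 and 0 FPKM in HC. Its log2 fold change was -1.21 on that day (limma adjusted p = 0.77). The difference between the days, 7.72 ± 1.85 (SE), was not called (limma adjusted p = 0.07).

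Prupe.3G144100 was the next highest. It had 228, 95.1, 139 and 717 FPKM in HC libraries 1 to 4, against 0, 7.05, 0 and 5.82 FPKM in control libraries 1 to 4. HC replicate 4 stood highest, and even the lowest HC library was far above the highest control library. The log2 fold change was 6.32 ± 1.14 (SE, adjusted p = 0.021), on an estimated 4662 reads in HC and 52 in control libraries. Without control replicate 1 it was 5.83 with an adjusted p of 0.076, and over 18 alternatives the adjusted p ran from 0.016 to 0.53. The call was also lost without HC replicate 1, 3 or 4 (0.051, 0.055 and 0.067) or control replicate 3 (0.062). The gene also stood higher in HC buds at 3 days, with 1074 ± 563 FPKM in HC and 26.7 ± 33.5 FPKM in control (SD, n = 4 each; limma adjusted p = 0.0051). The difference between the HC effects was -0.4 ± 1.62 (SE, limma adjusted p = 0.96), so it was not a late gene.

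The largest decrease was in Prupe.2G181500. Its FPKM was 19.4, 48.5, 78.3 and 23.9 in HC libraries 1 to 4, against 209, 261, 465 and 457 FPKM in control libraries 1 to 4. The mean was 42.5 ± 27.1 FPKM in HC and 348 ± 132 FPKM in control buds (SD, n = 4 each), a log2 fold change of -3.13 ± 0.43 (SE, limma adjusted p = 0.0038). The call held in each of 19 alternatives (adjusted p from 2.2e-05 to 0.036), and without control replicate 1 the log2 fold change was -3.35. At 3 days the same gene was lower in HC buds by -2.25 on the log2 scale (adjusted p = 0.0089).

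Prupe.2G240300 was the next lowest, at 2.52, 0, 0 and 3.50 FPKM in HC libraries 1 to 4, against 13.8, 15.95, 9.99 and 16.3 FPKM in control libraries 1 to 4. The groups did not overlap and control varied little, with a log2 fold change of -2.89 ± 0.62 (SE, limma adjusted p = 0.037). This call was fragile. It was lost in 14 of 18 alternatives, with adjusted p from 0.029 to 0.25, while the log2 fold change itself stayed between -4.65 and -2.56. Leaving out any 1 of the 8 libraries ended it, with adjusted p of 0.051, 0.083, 0.11 and 0.051 without HC replicates 1 to 4 and 0.079, 0.055, 0.062 and 0.089 without control replicates 1 to 4. With replicate number blocked it was 0.072.

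**Figure D2:**
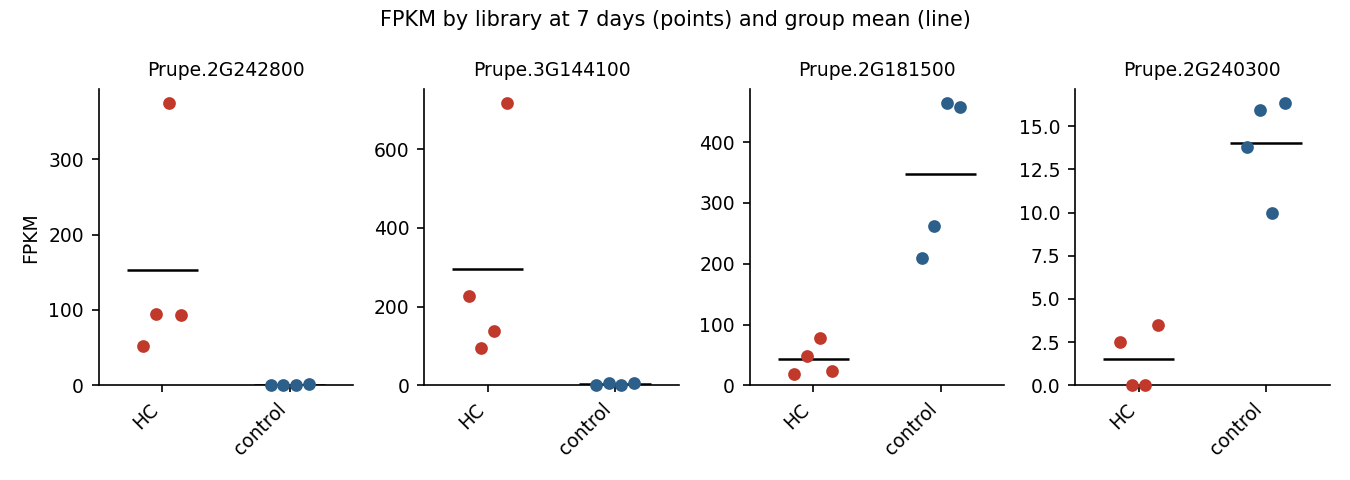
FPKM (vertical axis, linear, a scale for each gene) of the 4 genes named for the size of their change at 7 days, with HC libraries in red left of control libraries in blue and the group mean as a line. Prupe.2G242800 and Prupe.3G144100 had their highest HC library at 374 and 717 FPKM with control at or near 0, and Prupe.2G181500 and Prupe.2G240300 had all HC points under all control points.

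The most abundant transcripts took a smaller part of HC libraries. The 10 most abundant genes of each library held 9.67%, 11.8%, 10.9% and 10.5% of all FPKM in HC libraries 1 to 4, against 14.9%, 12.5%, 15.2% and 14.0% in control libraries 1 to 4. The groups did not overlap, and the means were 10.7 ± 0.88% in HC and 14.2 ± 1.21% in control (SD, n = 4 each; exact permutation test, two-sided, p = 0.0286, the smallest it allows with 4 against 4). For the 100 most abundant genes the means were 30.6 ± 1.84% in HC and 36.5 ± 2.01% in control (p = 0.0286, same exact test). The same share for 10 genes at 3 days was 11.7 ± 1.69% in HC and 13.9 ± 0.36% in control (exact p = 0.0286), and for 100 genes it was 32.9 ± 2.63% and 36.5 ± 0.94% (exact p = 0.0571). These 4 tests were made on overlapping gene sets, probably on the same trees at both days, and were not adjusted. Of the 100 genes with the highest mean at 7 days, 67 had a negative log2 fold change (81 with median-of-ratios scaling), with a median of -0.19 against 0.26 over all tested genes. In 21 of the 100 all HC libraries lay below all control libraries and in 5 all lay above, set against 1.63% and 5.31% of all tested genes. Of the 100, 6 were called lower and 1 higher, set against 0.143% and 0.457% of all tested genes.

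The most abundant of all at 7 days was Prupe.3G287000, named after its values were seen. It had 17257, 24418, 20253 and 16524 FPKM in HC libraries 1 to 4, against 35764, 26704, 41695 and 35210 FPKM in control libraries 1 to 4. All HC libraries lay below all control libraries, at a mean of 19613 ± 3587 FPKM in HC and 34843 ± 6169 FPKM in control (SD, n = 4 each). The log2 fold change of -0.83 ± 0.19 (SE) did not pass over all genes (limma adjusted p = 0.058, range over 19 alternatives 0.028 to 0.18), and it passed without HC replicate 2 (0.040) or control replicate 2 (0.028). At 3 days, in other libraries that probably came from the same trees, it was lower in HC by -0.87 on the log2 scale (adjusted p = 0.024).

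An effect was taken as late when the gene was called at 7 days and the difference between its HC effects at 7 and 3 days was called as well. Of the 88 genes, 22 were late (0.15% of tested genes), 18 higher and 4 lower in HC at 7 days. For comparison, the difference between days was called for 81 genes, 0.552% of those tested. Another 15 of the 88 were also called at 3 days in the same direction, 7 higher and 8 lower in HC. Over all tested genes 1.0% were called higher and 0.805% lower in HC at 3 days. The tests of both days share the estimate of the spread of each gene, so their calls are not independent. For 51 further genes there was a call at 7 days, none at 3 days and no call of the difference, so these are not shown to differ between the days. The late count was 8 and 7 without HC replicate 3 or 4, and 10, 44 and 13 without control replicate 1, 2 or 3.

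The rule for late genes favours an effect of opposite sign at 3 days, so the values of that day are a description of the genes chosen. Of the 18 that were higher in HC at 7 days, 17 had a negative log2 fold change at 3 days and 4 of them were called lower in HC on that day, beside 0.805% of tested genes. In 14 of the 18 the HC mean was higher at 7 than at 3 days while the control mean was lower at 7 than at 3 days. In 1 gene the HC mean alone moved that way, and in 3 the control mean alone. All 4 late genes that were lower in HC at 7 days had a positive log2 fold change at 3 days, none of them called.

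Prupe.8G250000 showed the first pattern. At 3 days its FPKM was 0.55, 4.30, 6.71 and 14.5 in HC libraries 1 to 4, against 56.5, 42.5, 36.3 and 32.0 FPKM in control libraries 1 to 4. At 7 days it was 142, 225, 136 and 231 FPKM in HC libraries 1 to 4, against 0, 26.2, 3.66 and 29.8 FPKM in control libraries 1 to 4. The HC libraries were all below control at 3 days and all above it at 7 days. The HC effect was -2.90 at 3 days (limma adjusted p = 0.12) and 4.50 at 7 days (adjusted p = 0.021) on the log2 scale, a difference of 7.41 ± 1.23 (SE, adjusted p = 0.0096). The difference was called in 15 of 16 alternatives (adjusted p from 0.0022 to 0.066, the highest with a pseudocount of 0.1). The effect at 7 days alone was less stable, at 3.51 with an adjusted p of 0.054 without control replicate 1 (range over 18 alternatives 0.011 to 0.12). It was lost as well without HC replicate 1, 3 or 4 (0.052, 0.055 and 0.078) or control replicate 3 (0.063).

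Prupe.8G192700 took another course and was near 0 in control at 7 days, while HC buds kept part of it. At 3 days the means were 55.9 ± 15.9 FPKM in HC and 86.8 ± 36.0 FPKM in control (SD, n = 4 each). At 7 days HC libraries 1 to 4 had 26.8, 16.7, 48.6 and 17.0 FPKM, against 0, 2.14, 0 and 0 FPKM in control libraries 1 to 4. Both groups were lower at the later day, and control replicate 2 was the only control library above 0. The difference between the HC effects was 4.84 ± 0.75 (SE, limma adjusted p = 0.0052), a call that held in each of 16 alternatives (adjusted p from 0.00031 to 0.021). Without control replicate 1 the effect at 7 days was 4.14 with an adjusted p of 0.0048 (range over 18 alternatives 0.00028 to 0.07, lost when only the libraries of 7 days were fitted).

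On the lower side, Prupe.5G116400 had 37.0, 109, 102 and 111 FPKM in HC libraries 1 to 4 at 3 days, against 67.6, 63.4, 66.8 and 47.7 FPKM in control libraries 1 to 4. At 7 days it had 12.4, 19.0, 10.5 and 10.6 FPKM in HC libraries 1 to 4, against 63.6, 31.9, 81.8 and 73.4 FPKM in control libraries 1 to 4. Control libraries of both days overlapped, and all HC libraries lay below control at 7 days. The log2 fold change at 7 days was -2.13 ± 0.40 (SE, limma adjusted p = 0.021), and the difference between days, -2.56 ± 0.57, was close to the threshold (adjusted p = 0.049). The call of the difference was lost in 12 of 17 alternatives (adjusted p from 0.021 to 0.10), among them the fits without HC replicate 1, 3 or 4 (0.087, 0.096 and 0.10) and without control replicate 1, 3 or 4 (0.068, 0.095 and 0.097). Leaving out any of these 6 libraries also ended the call at 7 days, with adjusted p of 0.051 to 0.067.

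At 3 days Prupe.2G249100 averaged 181 ± 46.8 FPKM in HC and 137 ± 26.7 FPKM in control buds (SD, n = 4 each). At 7 days HC libraries 1 to 4 had 94.1, 161, 94.2 and 39.6 FPKM, against 395, 370, 430 and 319 FPKM in control libraries 1 to 4. The log2 fold change at 7 days was -2.10 ± 0.32 (SE, limma adjusted p = 0.008), and this call was lost in 2 of 19 alternatives, the fits to the libraries of 7 days alone (0.051, and 0.10 without control replicate 1). The difference between the HC effects was -2.48 ± 0.45 (SE, limma adjusted p = 0.018), and the call held in each of 17 alternatives (adjusted p from 0.0001 to 0.038).

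**Figure D3:**
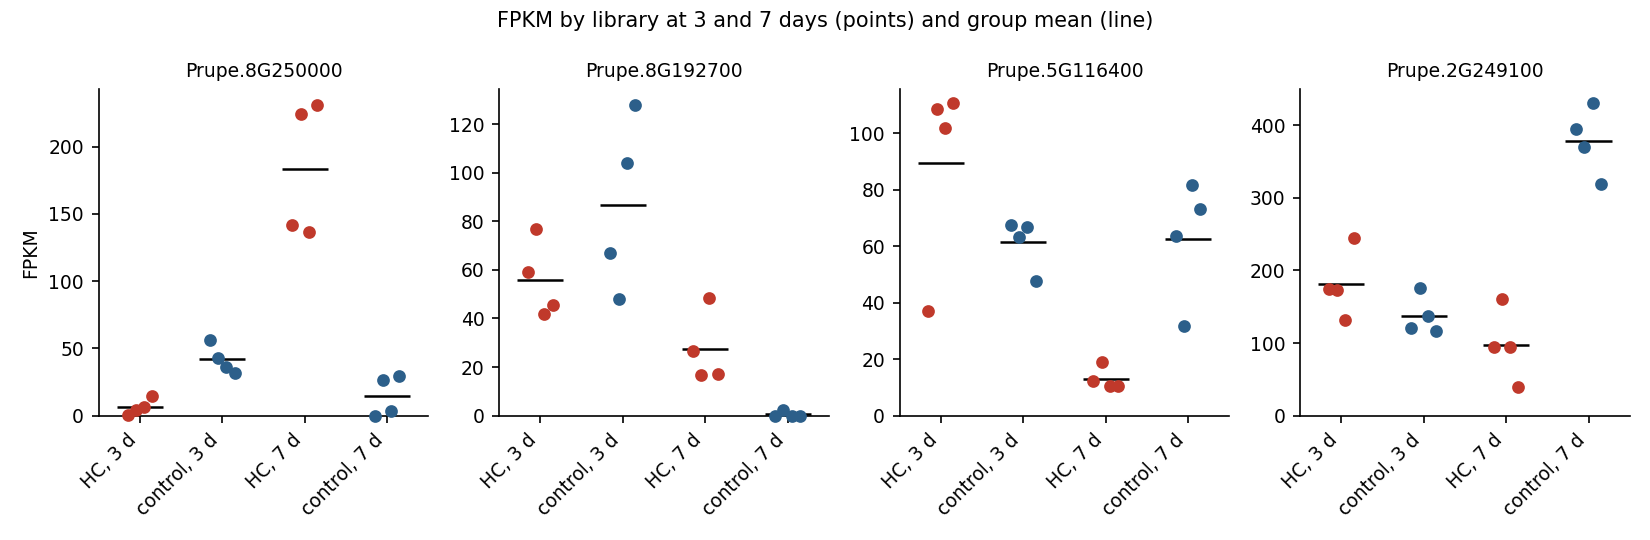
FPKM (vertical axis, linear, a scale for each gene) of the 4 genes named as late, by library at 3 and then 7 days, with HC (red) left of control (blue) at each day and group means as lines. Prupe.8G250000 has HC below control at 3 days and above it at 7 days, Prupe.8G192700 is near 0 in control at 7 days, and Prupe.5G116400 and Prupe.2G249100 have HC below control at 7 days.

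Among the abundant late genes, 2 were chosen after their values were seen. Prupe.8G064100, the late gene with the lowest adjusted p, had 774, 1234, 805 and 819 FPKM in HC libraries 1 to 4 at 7 days, against 3305, 2982, 2619.9 and 3078 FPKM in control libraries 1 to 4. At 3 days the order of the means was the reverse, 1489 ± 290 FPKM in HC and 999.7 ± 129 FPKM in control (SD, n = 4 each). The log2 fold change at 7 days was -1.74 ± 0.17 (SE, limma adjusted p = 7e-05), with no alternative of 19 losing the call (adjusted p from 1.2e-08 to 0.011). Its difference between the HC effects was -2.31 ± 0.24 (SE, limma adjusted p = 0.0002, and 0.00055 without control replicate 1). Prupe.3G244700 was among the highest of all transcripts at 3 days, at 33514 ± 7203 FPKM in HC and 29026 ± 2563 FPKM in control. At 7 days it stood at 2462 ± 263 FPKM in HC and 4016 ± 425 FPKM in control (SD, n = 4 each; log2 fold change -0.71 ± 0.13, SE, adjusted p = 0.021). This call was lost in 9 of 19 alternatives (adjusted p from 0.011 to 0.67), among them the fits without HC replicate 1 or 3 (0.068 and 0.055) and without control replicate 1, 3 or 4 (0.072, 0.058 and 0.052). The difference between the HC effects on Prupe.3G244700 was -0.89 ± 0.19 (SE, limma adjusted p = 0.04). Without control replicate 1 its adjusted p was 0.07, so the gene was not late in that fit.

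Some transcripts were present in one treatment and listed at 0 in the other. In 31 genes, called on in HC below, all 4 HC libraries had 1 FPKM or more while all 4 control libraries were at 0. No gene was off in HC, that is at 0 in all 4 HC libraries and at 1 FPKM or more in all 4 control libraries. The 31 genes had mean HC levels of 2.45 to 53.9 FPKM with a median of 5.73 FPKM, on an estimated 59 to 746 reads per gene in HC libraries. All 31 passed the filter and 13 were called, against 0.457% called higher over all tested genes, but both numbers come from the libraries that chose the genes. The libraries of 3 days did not choose these genes, but probably came from the same trees. At 3 days 22 of the 31 were above 0 in at least 1 control library and 9 were at 0 in all 4. On that day 20 had a positive log2 fold change, the median was 0.20 against 0.15 over all tested genes, and 1 was called, against 1.81% of tested genes called at 3 days. Leaving out a library loosens the rule, so the count can only stay or grow. It was 37 without HC replicate 1 and 33 without control replicate 1, but 53, 102 and 63 without HC replicate 2, 3 or 4, and 149, 51 and 63 without control replicate 2, 3 or 4.

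Prupe.4G017000 was the most abundant of these genes. It had 73.5, 15.1, 81.2 and 45.9 FPKM in HC libraries 1 to 4, and the control libraries of 7 days were all listed at 0. At 3 days HC libraries 1 to 4 had 84.2, 10.95, 44.1 and 41.0 FPKM, against 0, 1.62, 0 and 0.17 FPKM in control libraries 1 to 4. The gene thus kept the same contrast at both days, and HC replicate 2 was the lowest HC library each time. It was called at 7 days (limma adjusted p = 0.0011) and in all 18 alternatives (0.00033 to 0.02). Prupe.6G292900 came next, with 4.20, 30.9, 91.7 and 4.79 FPKM in HC libraries 1 to 4 and 0 in all 4 control libraries (adjusted p = 0.013). It was listed at 0 in all 8 libraries of 3 days. HC replicates 2 and 3 carried most of the signal, and the call was lost in 3 of 18 alternatives (adjusted p from 0.0065 to 0.2), which include the fit to the libraries of 7 days alone. The authors' deposited table for 7 days gives Prupe.6G292900 a log2 fold change of 4.13 with an adjusted p-value of 1.0. In that table every named gene has the direction of the limma fit. Apart from Prupe.6G292900 and Prupe.2G242800, its adjusted p-values for them are 2.7e-05 or less, by a method that is not stated. Log2 fold changes there are -2.78 for Prupe.2G240300 (adjusted p-value listed at 0) and -0.92 for Prupe.3G287000 (7.3e-08). They are -2.29 for Prupe.5G116400 (2.5e-14) and -0.78 for Prupe.3G244700 (3.1e-13).

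The imbalance between 31 and 0 stood beside an unequal depth, and the part of depth in it was not tested. HC libraries held an estimated 26150000 reads in genes, against 15230000 in control libraries, and HC replicate 1 alone held 16610000. A gene could be listed at 0 throughout HC only if HC replicate 1 had no read of it. Without HC replicate 1 the HC libraries held an estimated 9540000 reads, fewer than the control libraries. In that setting 7 genes were off in HC and 37 were on. HC replicate 1 had 1.05 to 6.49 FPKM of those 7, none of which was called in the test over all genes. Without control replicate 1, 4 genes were off and 33 were on. With another rule, under 1 FPKM in all 4 libraries of one group and 5 FPKM or more in all 4 of the other, 8 genes were on and 0 were off in HC. This rule was added after the data were seen. When 3 of 4 libraries at 0 were enough, 203 genes were on and 7 off in HC. Of the 203, 118 were above 0 in control replicate 2 alone among controls, and all 7 were above 0 in HC replicate 1 alone among HC libraries.

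Control replicate 1 was the shallowest library. Estimated reads in genes were 16610000, 3565000, 2592000 and 3384000 in HC replicates 1 to 4, against 554000, 3565000, 2071000 and 9044000 in control replicates 1 to 4. Genes above 0 numbered 13052 to 18378 in HC libraries, 13286 to 15834 in control replicates 2 to 4 and 10356 in control replicate 1. In control replicate 1 a median of 1.23 FPKM stood for 1 read, so the filter of 1 FPKM lay under the resolution of this library. The same value was 0.041 FPKM in HC replicate 1 and between 0.075 and 0.339 FPKM in the remaining 6 libraries. Tested genes listed at 0 in 1 library and in no other numbered 1, 28, 490 and 142 in HC replicates 1 to 4, against 1838, 25, 353 and 154 in control replicates 1 to 4. The correlation of log2 values over tested genes was 0.71 to 0.74 between control replicate 1 and the other control libraries, and 0.79 to 0.84 among those other 3, a description of libraries that differ in depth.

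**Figure D4:**
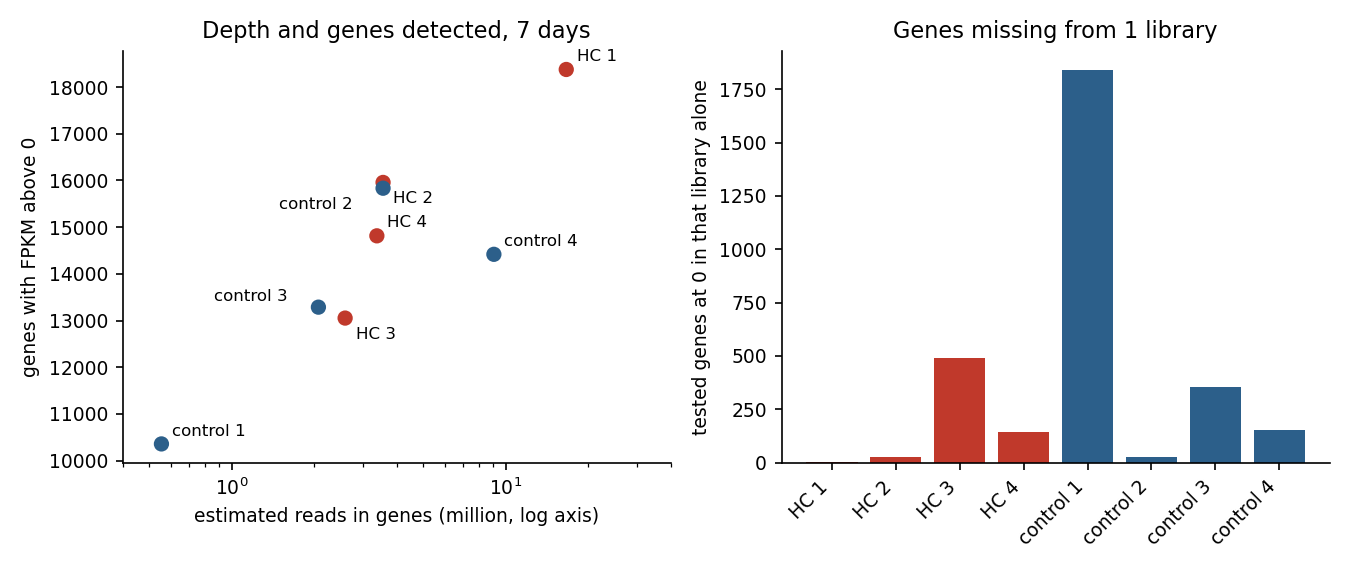
Left, genes with an FPKM above 0 against estimated reads in genes (log axis), 1 point per library of 7 days, HC in red and control in blue. Right, tested genes listed at 0 in that library and in no other. Control replicate 1 lies apart at 554000 reads and 10356 genes, and 1838 tested genes are missing from it alone.

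Of the 8 libraries, leaving out control replicate 1 moved the spread within its group and the median over all genes the most. The median SD of a gene over the 4 HC libraries was 0.66 on the log2 scale, and 0.49 without HC replicate 3. Over the 4 control libraries it was 0.92, and 0.64 without control replicate 1, while leaving out another control library gave 0.86 to 0.92. The 4602 tested genes at 0 in control replicate 1 had a median log2 fold change of 0.89, which was 0.28 when that library was left out. Genes picked for a 0 in a control library must have a higher fold change with it, so this split only describes them. The other 10062 genes had 0.07, and 0.10 without it. The median over all tested genes was 0.26 with control replicate 1 and 0.14 without it, while leaving out any other library gave 0.20 to 0.33.

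Without control replicate 1, 27 genes were called, 18 higher and 9 lower in HC, and 26 of these were among the 88. The 62 lost genes, 49 higher and 13 lower in HC, had adjusted p-values of 0.054 to 0.15 in that fit. Their median size, regardless of sign, was 2.67 on the log2 scale with the library and 2.54 without it. Control replicate 1 was at 0 in 32 of the 62 lost genes and in 10 of the 26 kept ones. The loss of calls was not particular to the shallow library: 24 genes were left without HC replicate 3 and 21 without HC replicate 4, both deeper than control replicate 1. Of the 67 genes higher in HC, 42 were at 0 in control replicate 1, but 19, 35 and 32 were at 0 in control replicates 2, 3 and 4 too, and in 5 control replicate 1 was the single library at 0. None of the 21 lower genes was at 0 in a control library. With the 7537 genes at 1 FPKM or more in all 8 libraries, a filter that removes genes low in either treatment, 38 genes were called, 20 higher and 18 lower in HC, and the median log2 fold change was 0.10.

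**Figure D5:**
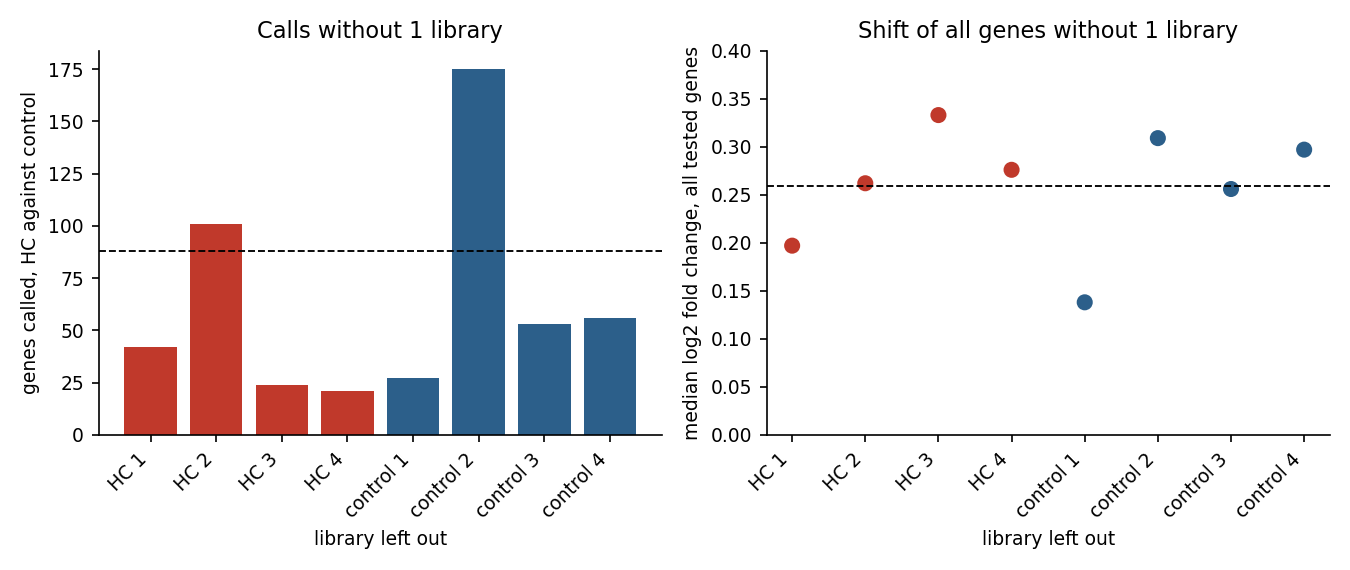
Genes called between HC and control at 7 days (left) and the median log2 fold change of all tested genes (right) when the library on the horizontal axis was left out, HC in red and control in blue, with dashed lines for all libraries (88 genes, median 0.26). Leaving out control replicate 1 gave 27 genes and the lowest median, 0.14, and leaving out control replicate 2 gave 175 genes.

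Control replicate 2 was the library whose removal gave the most calls. The count without it was 175, 148 higher and 27 lower in HC, and 79 of the 88 genes were among them. It was the highest control library in 36 of the 54 genes higher in HC that had any control library above 0, against 23.2% of all tested genes, in a list chosen by the same libraries. For the share of FPKM in the 10 most abundant genes it was, at 12.5%, the control library nearest to the HC libraries. Whether its position reflects the tree, the sample or the library was not tested.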

How the data were processed

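Buds were profiled by mRNA sequencing (Illumina TruSeq mRNA libraries from total RNA, per the labels' protocols). The submitters' processing notes name RSEM 1.2.31, STAR 2.5.2a and Trimmomatic but no roles, and a genome build is not given in the sources used here. A deposited matrix held FPKM by its values: in the 8 libraries of 7 days 98.9% to 99.1% of values above 0 were not whole and sums ran from 1075586 to 1209106. For each day the authors also deposited a table with log2 fold change, adjusted p-value and a signal value for either treatment, by an unstated method. Groups, replicate numbers and days came from the labels. The labels give 4 trees per treatment, so buds of both days probably came from the same trees, which the fit ignores.

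Genes with FPKM of 1 or more in at least 4 of the 8 libraries were fitted with limma 3.58.1 in R 4.3.3 on log2(FPKM + 1), 1 mean per group over 16 libraries, with trend and robust moderation (statmod 1.5.0) and Benjamini-Hochberg adjustment over 14664 genes. Fold changes on this scale understate changes of low genes. An FPKM of 0 means only that the gene is listed at 0. The fit was also run on simulated reads with known changes. They were drawn with the same setting of the spread for every gene. That run thus cannot show how the fit does at the spread of these libraries.

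Reads per library were estimated. The deposited signal divided by summed FPKM gave a length-like factor for 20556 genes (quartile range of 0.0122 on the log2 scale between the tables of the 2 days, over 18510 genes), and the step of low values times this factor was taken as 1 read. In the 8 libraries 89.5% to 94.5% of low values lay within 0.2 steps of a whole number, against 40% by chance. The estimates served depth and 1 alternative fit.

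Named genes are, by log2 fold change, the top 2 and bottom 2 among calls with no overlap between groups and a mean FPKM of 1 or more, the same among late genes, and the 2 most abundant on/off genes in each direction that has any. Members, lists and tests were chosen with earlier results of these data known. Product-name lists could not be used without gene names. Alternatives covered the pseudocount, the filter, scaling, library weights, voom, the set of libraries and the replicate block.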

Additional observations from a re-analysis of the deposited data

Results flagged for a closer look

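Of 32 groups of 4 libraries checked at 7 days, 6 held a library far from the other 3. The genes given here were named by values of the same libraries, so no rate by chance can be set beside this count. Prupe.2G242800 had 374.35 FPKM in HC replicate 3, far above the rest of its group. In control replicate 4 it had 1.57 FPKM, an estimated 1 read, with the other control libraries at 0. Prupe.8G064100 had 1234.49 FPKM in HC replicate 2, above the other HC libraries. Prupe.8G192700 had 2.14 FPKM in control replicate 2, with the other control libraries at 0, and Prupe.3G244700 had 3384.89 FPKM in control replicate 2, below the other control libraries. The estimated depth of HC replicate 1 was 16610000 reads, far above the other HC libraries.

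The HC effect differed between the days, by limma's test of the difference, for the 4 late genes named. The rule for late genes requires this call, so it lends no further weight. The effect at 7 minus that at 3 days was 7.41 for Prupe.8G250000 (adjusted p = 0.0096), 4.84 for Prupe.8G192700 (0.0052), -2.56 for Prupe.5G116400 (0.049) and -2.48 for Prupe.2G249100 (0.018), all on the log2 scale. For Prupe.5G116400 this call was lost in 12 of 17 alternatives.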

How the results depend on the processing

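No count, median over all genes, share or named gene changed its direction under the alternatives run, and the sign of 1 abundance class that depends on scaling is given above. Genes called at 7 days numbered 88, and 49 with a pseudocount of 0.1, 38 among genes at 1 FPKM or more in all 8 libraries, 13 with only the 8 libraries of 7 days, 9 when control replicate 1 was also left out of those, and 21 to 175 without 1 library. Array quality weights gave 88, 69 higher and 19 lower in HC. Under voom on estimated reads there were 106, 61 higher and 45 lower in HC, a smaller excess of higher genes than in the main fit. The difference between days was called for 81 genes, 42 with a pseudocount of 0.1, 239 with array quality weights, 221 under voom and 32 to 102 without 1 library. Late genes numbered 22, 13 with a pseudocount of 0.1, 13 among genes at 1 FPKM or more in all 8 libraries, 41 with array quality weights, 43 under voom, 58 at an adjusted p under 0.1 and 7 to 44 without 1 library. The median log2 fold change was 0.259, 0.103 among genes at 1 FPKM or more in all 8 libraries and 0.138 to 0.333 without 1 library. On in HC were 31 genes, 4 at 5 FPKM or more, 203 when 3 of 4 libraries at 0 sufficed, 8 under the rule of under 1 against 5 FPKM or more and 33 to 149 without 1 library. Off in HC were 0 genes, 7 when 3 of 4 sufficed and 0 to 7 without 1 library. The share held by the 10 most abundant genes differed by -3.45 percentage points between HC and control, -3.09 to -3.99 without 1 library, and -5.93 for 100 genes. The cause of these shifts was not tested. Settings added after seeing the data were the fits without control replicate 1 on 8 libraries or in the filter, the rule of under 1 against 5 FPKM, and those on the share of abundant genes.

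Replicate numbers mark separate trees in HC and control. Same-numbered libraries of 7 days had correlations of deviations of -0.05, -0.027, -0.016 and 0.005. Between the days, for the same treatment and number, they ran from -0.034 to 0.097. In libraries of such unlike depth, values near 0 cannot show whether same-numbered samples share a tree or a batch. With replicate number as a block 60 genes were called at 7 days, 57 for the difference between days and 18 as late.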
